A study of Homo sapiens with 30 samples.

Results

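The genes described are those of the proteasome: every protein-coding gene whose symbol starts with PSM and one of the letters A to G followed by a number, with 1 gene of the activator family left out by the rule, plus POMP. By symbol 48 genes met this rule, and 47 of them were in the tables of all 3 cell lines. The Ensembl ID matched to PSMB3, a constitutive beta gene, was found in IMR32 only, and the other lines may carry it under another ID. PSMB3 is not counted further, so counts of beta genes leave it out. Of the 47 genes, 41 had a mean normalised count of at least 10 in IMR32 and could be tested there, 42 could be tested in NGP (PSMB10 in addition) and 43 in SK-N-BE(2)c (PSMB10 and PSMD5 in addition). They stood among 17309, 14440 and 13556 genes tested in these lines. The 41 genes tested in every line were 13 subunits of the core particle, 17 of the cap, 7 assembly chaperones, 3 activator genes and 1 inhibitor gene.

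RNA was sequenced from IMR32, NGP and SK-N-BE(2)c, which are established lines from neuroblastoma, a childhood tumour of the sympathetic nervous system. Cells had been transfected by lipofection with 100 nM of an antisense oligonucleotide (ASO), a short synthetic strand that binds an RNA and can lead to its cleavage. IMR32 received ASO1, ASO2 or the control ASO called NCA, with 4 libraries each, and NGP and SK-N-BE(2)c received ASO2, ASO10 or NCA, with 3 libraries each. The series title describes NESPR as a long non-coding RNA of adrenergic cells with a part in stress and cell survival. The comparisons ask how transcripts differ between cells given an ASO against NESPR and cells given NCA. NESPR itself was not analysed here, so the extent of knockdown in each library is not given. All groups share the transfection reagent and dose. Among the controls of NGP and SK-N-BE(2)c, the header of NCA replicate 1 has another spelling than replicates 2 and 3, and the labels do not settle whether that marks another control oligonucleotide. The labels also do not say which of 2 library kits, for total RNA or for mRNA, was used for which library. Whether replicates came from separate cultures is not stated, so each p-value measures the spread between these libraries, which may be technical.

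The proteasome degrades proteins tagged with ubiquitin. Its core particle is a barrel of outer rings of alpha subunits and inner rings of beta subunits, some of which carry the proteolytic sites. A cap sits on the barrel. The base of the cap is a ring of ATPases that unfolds substrates and threads them into the core, and the lid removes ubiquitin. Dedicated chaperones help to assemble core and base, and activator proteins can open the core in place of the cap. In cells exposed to interferon, the beta subunits PSMB8, PSMB9 and PSMB10 replace their constitutive counterparts in the immunoproteasome, which shapes the peptides shown on MHC class I. When proteasome activity falls, the transcription factor NFE2L1 is known to raise many subunit genes together through antioxidant-type elements in their promoters.

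Promoter sequence was available for 41 of the 47 genes in the RefSeq tables (GRCh38.p14), as the 250 bases before the annotated transcription start. It was missing for PSMA7, PSMB1, PSMB6, PSMB7, PSMD4 and PSMG3, which apart from PSMG3 are core or cap genes. Motifs were searched as letters on both strands. The antioxidant-type core TGACNNNGC, in which N is any base, was found in 10 of the 41 windows (24.4%), against 11.0% of 27305 promoter windows of the same length. Only PSMD3 and PSMD12 among these 10 are constitutive core or cap subunits. The others were chaperones (PSMD5, PSMD9, PSMG1, PSMG2), activators (PSME1, PSME2, PSME4) and PSMB9 of the immunoproteasome. The share over the 41 genes thus does not describe core and cap genes. The pattern GAAA, any 2 bases, GAAA, of the kind bound by interferon regulatory factors, was found in 5 of the 41 (12.2%), against 3.07% of all windows. The CCAAT box was found in 16 of the 41 (39.0%), against 33.0% of all. The windows of 5 genes on which the results turn are printed here from 5′ to 3′ on the strand of the gene. They belong to PSMD3 (chr17:39980557-39980806, plus strand), PSMD12 (chr17:67366578-67366827, minus strand), PSMD5 (chr9:120842923-120843172, minus strand), PSMA5 (chr1:109426449-109426698, minus strand) and PSMB10 (chr16:67936851-67937100, minus strand). PSMD3 and PSMD12 are lid genes that differed between the ASOs of SK-N-BE(2)c and NGP, PSMD5 was abundant in 1 line only, PSMA5 was the core gene that fell most with ASO2, and PSMB10 was the immunoproteasome gene with the most reads. Capitals mark TGACNNNGC in the first 3, CCAAT in PSMA5 and the GAAA repeat in PSMB10. A match is a run of letters and not a measured binding site.
PSMD3: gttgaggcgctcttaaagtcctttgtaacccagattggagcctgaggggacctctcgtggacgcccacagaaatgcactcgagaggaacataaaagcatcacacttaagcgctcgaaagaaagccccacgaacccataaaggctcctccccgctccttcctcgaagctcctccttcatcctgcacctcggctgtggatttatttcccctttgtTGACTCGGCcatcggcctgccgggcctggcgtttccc
PSMD12: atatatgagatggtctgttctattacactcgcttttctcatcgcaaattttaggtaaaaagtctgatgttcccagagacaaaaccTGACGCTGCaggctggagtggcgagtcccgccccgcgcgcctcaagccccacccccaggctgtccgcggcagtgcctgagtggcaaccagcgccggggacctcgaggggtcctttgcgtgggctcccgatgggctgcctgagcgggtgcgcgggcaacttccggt
PSMD5: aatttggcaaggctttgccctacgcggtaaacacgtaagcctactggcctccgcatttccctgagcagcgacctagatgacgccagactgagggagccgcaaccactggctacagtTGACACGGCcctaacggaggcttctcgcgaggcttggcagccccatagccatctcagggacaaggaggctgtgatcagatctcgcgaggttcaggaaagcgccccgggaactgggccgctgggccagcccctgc
PSMA5: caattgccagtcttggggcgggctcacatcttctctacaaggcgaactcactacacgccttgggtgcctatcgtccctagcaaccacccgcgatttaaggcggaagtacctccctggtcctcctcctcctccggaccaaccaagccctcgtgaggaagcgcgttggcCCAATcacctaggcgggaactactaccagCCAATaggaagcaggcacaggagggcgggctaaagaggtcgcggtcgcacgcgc
PSMB10: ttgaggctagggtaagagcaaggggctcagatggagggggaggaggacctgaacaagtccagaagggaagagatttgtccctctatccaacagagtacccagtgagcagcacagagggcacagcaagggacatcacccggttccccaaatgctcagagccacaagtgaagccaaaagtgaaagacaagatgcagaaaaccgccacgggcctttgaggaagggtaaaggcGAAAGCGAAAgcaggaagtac
PSMD3 held TGACTCGGC close to its start, PSMD12 held TGACGCTGC farther upstream, and PSMD5 held TGACACGGC. PSMA5 carried 2 CCAAT boxes. The element GAAAGCGAAA of PSMB10 lay at the end of the window nearest the start site.

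Recovered reads ran from 9393587 to 15060356 per library over all 30 libraries, and values are the authors' normalised counts. The 6 markers of adrenergic neuroblastoma cells reported here had reads in all libraries. The transcription factor HAND2 had mean normalised counts of 9681 (IMR32), 10608 (NGP) and 4835 (SK-N-BE(2)c), but TH, the rate-limiting enzyme of catecholamine synthesis, averaged only 27.3 in IMR32. Against NCA, 3 and 2 of the 6 markers fell in IMR32 with ASO1 and ASO2, 4 and 6 in NGP with ASO2 and ASO10, and 3 and 5 in SK-N-BE(2)c with ASO2 and ASO10. With ASO2, 1 of the 6 rose in NGP and the other 3 rose in SK-N-BE(2)c (GATA3, DBH and ISL1, by 0.18, 0.27 and 0.57). Of all genes tested, 14.4% and 14.8% fell in IMR32, 28.1% and 27.6% in NGP and 33.4% and 31.1% in SK-N-BE(2)c, in the same order. The share of all genes that rose ran from 13.6% (ASO1 in IMR32) to 33.6% (ASO2 in SK-N-BE(2)c). The summed normalised counts of 5 mesenchymal markers (VIM, FN1, PRRX1, YAP1 and SNAI2) were 2569 to 3156 with ASO1, 3287 to 3479 with ASO2 and 2441 to 2961 with NCA in IMR32. In NGP they were 13418 to 14381 with ASO2, 11096 to 11763 with ASO10 and 9711 to 9842 with NCA. Sums in SK-N-BE(2)c were 3751 to 3815, 3492 to 3747 and 2666 to 2831, so that both ASOs of these lines lay above NCA. Of those tested, 1 of 4 rose with ASO1 and 2 of 4 with ASO2 in IMR32, 2 of 3 rose and FN1 fell with each ASO in NGP, and VIM rose, 1 of 2, with each in SK-N-BE(2)c. The part of either marker list in the results for proteasome genes was not tested. In IMR32 the library numbered 1 was the highest or lowest of its group for several proteasome genes, so counts in that line are also given without the 3 libraries numbered 1.

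The proteasome genes did not move alike with each ASO (see the plot of differences by gene). In IMR32 many more rose than fell, with 26 of 41 higher, 2 lower and 13 not called with ASO1, and 20 higher, 1 lower and 20 not called with ASO2. In NGP and SK-N-BE(2)c, ASO2 raised some subunits and lowered others. Of all genes tested, ASO2 raised 30.6% and lowered 28.1% in NGP, and raised 33.6% and lowered 33.4% in SK-N-BE(2)c. ASO10 left core subunits more often lower than higher, in NGP at a share near the 27.6% of all genes that were lower. Changes were modest: the median difference on the log2 scale over tested proteasome genes ran from -0.00 (ASO10 in SK-N-BE(2)c) to 0.24 (ASO1 in IMR32), while the median over all genes tested was between -0.03 and 0.01 in the comparisons with NCA. A gene was called, and is said to have risen or fallen, at a limma p under 0.05 after Benjamini-Hochberg adjustment over all genes tested.

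**Figure D1:**
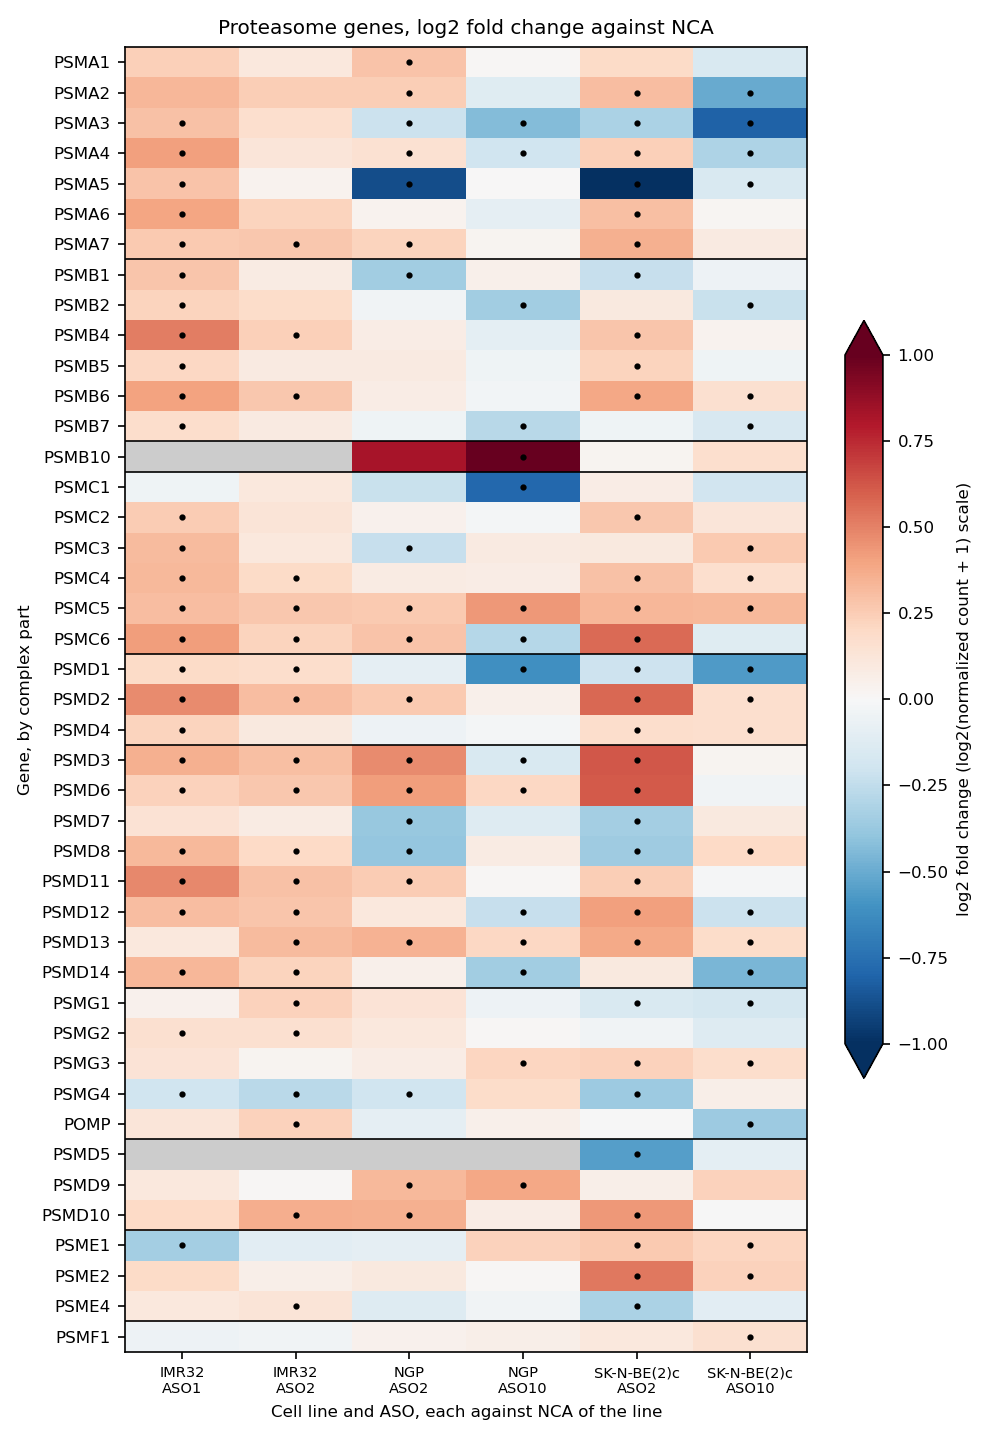
Differences of proteasome genes against NCA. Rows are genes grouped by role and columns are the 6 comparisons of an ASO with NCA. Colour gives the log2 fold change from limma and a dot marks a called gene. The IMR32 columns are nearly all on the higher side, while ASO2 and ASO10 columns of NGP and SK-N-BE(2)c hold both signs, with PSMA5 at -0.89 and -1.01 under ASO2.

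For IMR32 with ASO1, 28% of all genes tested were called (13.6% higher, 14.4% lower), against 68.3% of the proteasome genes. With ASO2 in IMR32 the background was 32.4% (17.6% higher, 14.8% lower), and 51.2% of the proteasome genes were called. Without the 3 libraries numbered 1, the counts were 29 higher and 1 lower with ASO1, and 24 higher and 1 lower with ASO2. In NGP, where 58.7% of all genes were called with ASO2 (30.6% higher, 28.1% lower), 13 of 42 proteasome genes rose and 7 fell. The background with ASO10 in NGP was 54.4% (26.8% higher, 27.6% lower), and 6 rose and 10 fell. With ASO2 the cells of SK-N-BE(2)c had 67% of all genes called (33.6% higher, 33.4% lower), and 22 of 43 proteasome genes rose and 10 fell. Scaled to the same total in every library, that split was 14 higher and 11 lower, and the median over all genes moved from -0.02 to -0.15. With ASO10 the background in SK-N-BE(2)c was 58.9% (27.8% higher, 31.1% lower), and 12 rose and 11 fell, or 15 and 9 by DESeq2. The share of proteasome genes called was 47.6% and 38.1% in NGP with ASO2 and ASO10 and 53.5% in SK-N-BE(2)c with ASO10, each below its background, and 74.4% in SK-N-BE(2)c with ASO2. Groups did not overlap for 25 higher and 1 lower proteasome genes with ASO1 in IMR32 (27.6% of all genes did not) and for 14 and 1 with ASO2 there (30.4%). The same counts were 15 and 9 with ASO2 in NGP (62.4%) and 7 and 11 with ASO10 (59.1%). For SK-N-BE(2)c they were 25 and 10 with ASO2 (69.3%) and 15 and 12 with ASO10 (64.7%). Comparisons within a line share their NCA libraries, so values for its ASOs are set side by side only.

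Library by library, core and cap medians were alike with ASO1 in IMR32 and parted with ASO10 in SK-N-BE(2)c. With ASO2 in IMR32 the cap median was above the core median in each library, at 0.15 and 0.02 in replicate 3. Without the 3 libraries numbered 1, the median differences with ASO2 in IMR32 were 0.21 for the cap and 0.09 for the core. The median deviation of the 13 core genes from the NCA mean was 0.21 to 0.42 on the log2 scale over the 4 ASO1 libraries of IMR32, 0.02 to 0.27 over the ASO2 libraries and -0.05 to 0.08 over NCA. For the 17 cap genes these ranges were 0.22 to 0.41, 0.15 to 0.34 and -0.04 to 0.12. In SK-N-BE(2)c the core medians were 0.20 to 0.22 with ASO2, -0.17 to -0.08 with ASO10 and -0.03 to 0.04 with NCA, and the cap medians were 0.25 to 0.31, 0.07 to 0.12 and -0.05 to 0.06. The NGP groups lay closer together, with core medians of -0.03 to 0.12 with ASO2, -0.08 to -0.06 with ASO10 and -0.02 to 0.03 with NCA. Core and cap genes thus stood apart from NCA in every library of SK-N-BE(2)c for both ASOs, with cap ranges of ASO10 and NCA nearly touching, and core ranges of ASO2 and NCA overlapped in IMR32 and NGP. In each IMR32 group the library numbered 1 had the highest core and cap median, and the other 3 core medians were 0.02 to 0.13 with ASO2 and -0.05 to -0.02 with NCA.

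**Figure D2:**
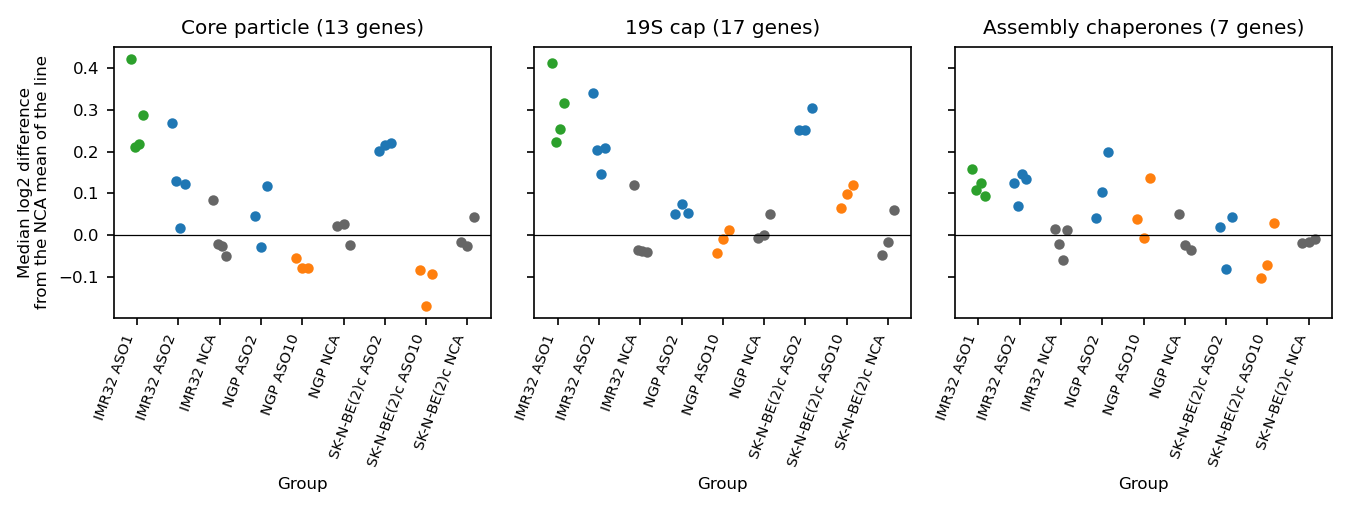
Median deviation of proteasome genes by library. Each point is 1 library, the vertical axis is the median over the 13 core genes, 17 cap genes or 7 chaperones of log2(value + 1) minus the mean of the NCA libraries of the line, and colours give the ASO. All ASO1 libraries of IMR32 lie above NCA, and the ASO10 libraries of SK-N-BE(2)c lie below NCA for the core (-0.17 to -0.08) and above it for the cap (0.07 to 0.12).

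Among core genes in IMR32, 5 of 7 alpha and 6 of 6 beta genes rose with ASO1. With ASO2, 1 alpha and 2 beta genes rose, and none fell with either ASO. Of all genes tested there, 13.6% rose and 14.4% fell with ASO1, and 17.6% and 14.8% with ASO2. Without the 3 libraries numbered 1, 12 core genes rose with ASO1 and 6 with ASO2, and the median core difference with ASO2 was 0.09 in place of 0.17. The largest rise was that of PSMB4, a non-catalytic beta subunit. Its normalised counts were 1697, 1594, 1572 and 1583 with ASO1, 1345, 1352, 1255 and 1375 with ASO2, and 1201, 1111, 1092 and 1108 with NCA. The 3 groups of PSMB4 did not overlap. The differences were 0.51 (SE 0.05, adjusted p = 1.4e-07) with ASO1 and 0.24 (SE 0.05, adjusted p = 0.000841) with ASO2. PSMA4, an alpha subunit, had 3521, 3073, 3031 and 3074 with ASO1 and 2488, 2376, 2415 and 2276 with NCA, a rise of 0.41 (adjusted p = 7.84e-05). With ASO2 PSMA4 had 3026, 2507, 2349 and 2531, which overlapped NCA (0.12, adjusted p = 0.175). PSMA7, PSMB4 and PSMB6 were the core genes that rose with both ASOs in IMR32. PSMB6 carries the caspase-like site, and its differences were 0.40 and 0.27.

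In NGP with ASO2, 4 of 7 alpha genes rose and 2 fell, and 1 of 6 beta genes fell. The same ASO in SK-N-BE(2)c raised 4 alpha and 3 beta genes and lowered 2 and 1. Of all genes tested, 30.6% rose and 28.1% fell in NGP, and 33.6% and 33.4% in SK-N-BE(2)c. The share of alpha genes that fell was thus near that of all genes in NGP. The change that stood out was in PSMA5, an alpha subunit present in every proteasome. In NGP its normalised counts were 702, 802 and 699 with ASO2, 1306, 1394 and 1393 with ASO10, and 1403, 1289 and 1385 with NCA. Counts in SK-N-BE(2)c were 1354, 1487 and 1532 with ASO2, 2545, 2596 and 2764 with ASO10, and 2787, 2972 and 3013 with NCA. The ASO2 libraries were lowest in both lines and overlapped no other group. PSMA5 fell by 0.89 (SE 0.07, adjusted p = 4.2e-11) in NGP and by 1.01 (SE 0.06, adjusted p = 1.82e-14) in SK-N-BE(2)c. With ASO10 the values were 0.01 (adjusted p = 0.949) in NGP and -0.15 (adjusted p = 0.0296) in SK-N-BE(2)c. The latter call was not kept by edgeR (adjusted p = 0.0711) or DESeq2 (0.113), or when ASO10 replicate 1 or 2 or NCA replicate 2 or 3 was left out (adjusted p 0.0764 to 0.104). In IMR32, PSMA5 moved the other way with ASO1: 1457, 1239, 1262 and 1351 against 1197, 1047, 1061 and 1037 with NCA (0.29, adjusted p = 0.00331). IMR32 cells given ASO2 had 1288, 1084, 1038 and 1058, which overlapped NCA (0.04, adjusted p = 0.711).

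PSMB1, a beta subunit without a proteolytic site, also fell with ASO2 in both of these lines. It had 2015, 2091 and 2156 with ASO2 against 2699.7, 2712 and 2564 with NCA in NGP (-0.35, adjusted p = 3.43e-06), and 2251, 2535 and 2433 against 2682, 2784 and 3026 in SK-N-BE(2)c (-0.23, adjusted p = 0.000769). Groups did not overlap in either line. PSMA7 was the core gene that rose with ASO2 in all 3 lines, by 0.27 (IMR32), 0.22 (NGP) and 0.36 (SK-N-BE(2)c). PSMA2 and PSMA4 rose with ASO2 in NGP (0.24 and 0.15) and SK-N-BE(2)c (0.31 and 0.23), but all 4 values lost the call when libraries were scaled to the same total (adjusted p 0.138, 0.172, 0.186 and 0.18). The PSMA2 call in NGP was also lost without NCA replicate 2 (0.13, adjusted p = 0.277) or any 1 of the ASO2 libraries (adjusted p 0.0522 to 0.132), and that in SK-N-BE(2)c without NCA replicate 3 (0.23, adjusted p = 0.102). The PSMA4 call in NGP was lost without ASO2 replicate 3 or NCA replicate 1 or 2 (adjusted p 0.0554 to 0.074). PSMA2 has 3 annotated pseudogenes, so reads may be shared between copies.

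With ASO10, 4 of 13 core genes fell and none rose in NGP, a share of 30.8% lower that is near the 27.6% of all genes. In SK-N-BE(2)c 6 fell (46.2%, against 31.1% of all genes) and 1 rose. PSMA3, an alpha subunit, was the clearest. Its normalised counts in SK-N-BE(2)c were 1273, 1084 and 1231 with ASO10, 1639.7 to 1718 with ASO2 and 1954, 2115 and 2214 with NCA, so the 3 groups did not overlap. PSMA3 fell by 0.81 (SE 0.06, adjusted p = 1.94e-11) with ASO10 and by 0.31 (adjusted p = 0.000109) with ASO2. In NGP it had 938, 884 and 992 with ASO10, 1106, 1076 and 1102 with ASO2 and 1215, 1235 and 1363 with NCA, a fall of 0.44 (adjusted p = 4.03e-06) and of 0.21 (adjusted p = 0.00731). PSMB2 and PSMB7, of which PSMB7 carries the trypsin-like site, fell with ASO10 in both lines (NGP -0.35 and -0.28, SK-N-BE(2)c -0.22 and -0.16). PSMB6 was the core gene that rose with ASO10 in SK-N-BE(2)c (0.16, adjusted p = 0.0221), a call lost without ASO10 replicate 3 (adjusted p = 0.0664) or NCA replicate 2 (0.12, adjusted p = 0.128). The fall of PSMB7 there was lost without NCA replicate 3 (-0.13, adjusted p = 0.0541).

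**Figure D3:**
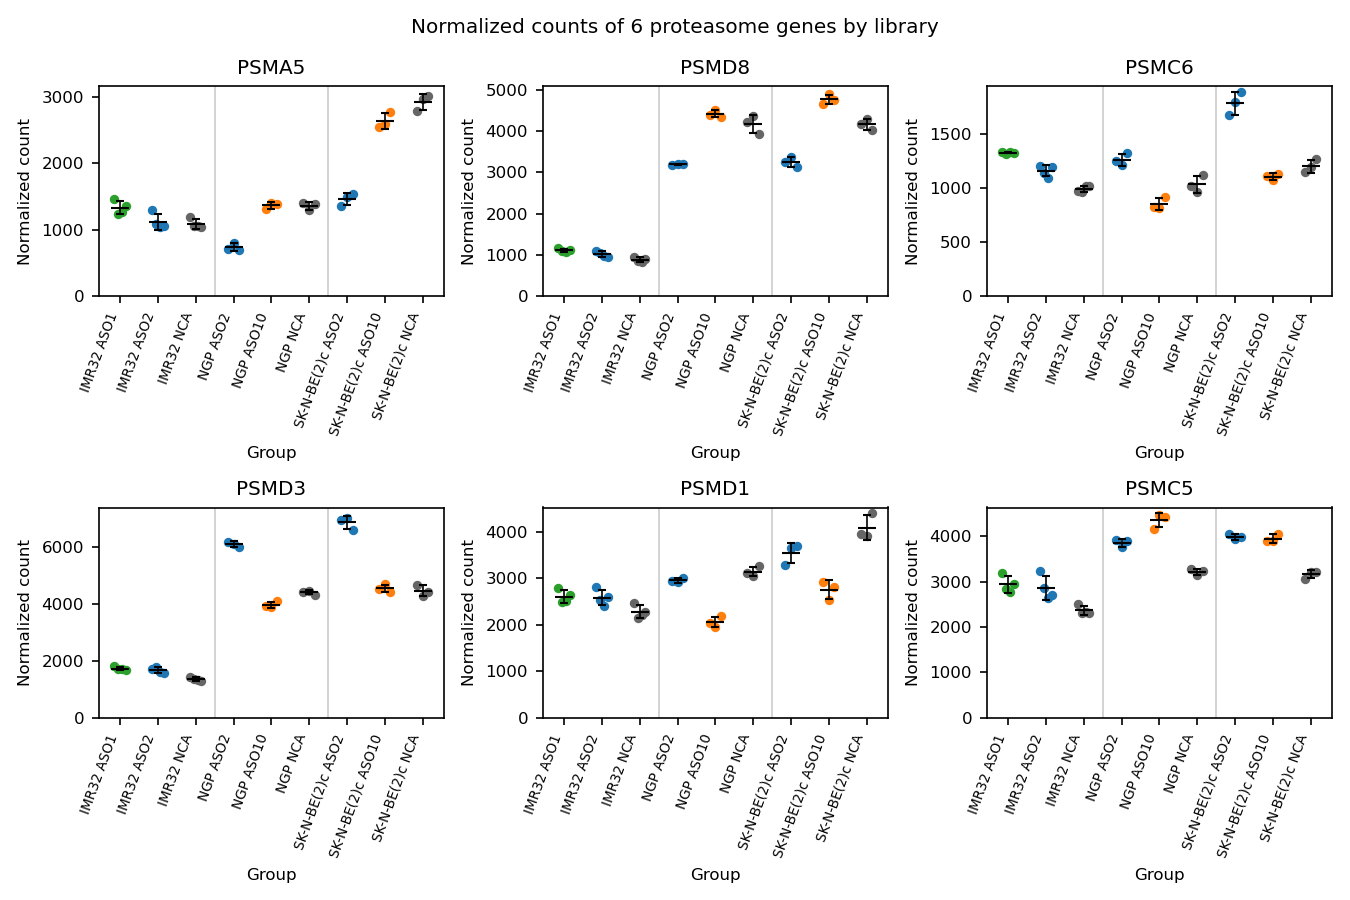
Normalised counts of 6 proteasome genes in every library. The vertical axis is the authors' normalised count, points are libraries, black marks are the group mean ± SD and colours give the ASO. IMR32 was scaled apart from the other lines, so levels compare within a panel's line only. PSMA5 and PSMD8 are lowest with ASO2 in NGP and SK-N-BE(2)c, PSMD3 is highest there, and PSMC5 lies above NCA in each group.

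The base of the cap holds 6 ATPases, of which 5 rose with ASO1 and 3 with ASO2 in IMR32. In that line 13.6% and 17.6% of all genes rose with these ASOs. Of the 41 genes tested in every line, only PSMC5 was called with 1 sign in all 6 comparisons with NCA. The share of all genes called in this way was not computed, and ADRM1, outside the rule, also rose in all 6. PSMC5 had 3193, 2842, 2771 and 2951 with ASO1, 3224, 2852, 2643 and 2716 with ASO2, and 2517, 2315, 2338 and 2313 with NCA in IMR32. In NGP it had 3909, 3755 and 3897 with ASO2, 4173, 4471 and 4438 with ASO10 and 3281, 3148 and 3233 with NCA. The SK-N-BE(2)c libraries had 4053, 3933 and 3978 with ASO2, 3899, 3891 and 4058 with ASO10 and 3058, 3216 and 3209 with NCA. No library given an ASO against NESPR overlapped NCA for PSMC5 in any line. The differences were 0.31 and 0.27 in IMR32 (ASO1, ASO2), 0.26 and 0.44 in NGP (ASO2, ASO10) and 0.34 and 0.32 in SK-N-BE(2)c, with adjusted p between 3.92e-08 and 0.00173.

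PSMC6, another ATPase of the base, moved in opposite directions with the 2 ASOs in NGP. It had 1255, 1212 and 1323 with ASO2, 825, 814 and 914 with ASO10 and 1019, 969 and 1122 with NCA, with no overlap between groups, and so rose by 0.29 (adjusted p = 0.00105) and fell by 0.28 (adjusted p = 0.00136). PSMC6 in SK-N-BE(2)c had 1677, 1797 and 1887 with ASO2, 1116, 1073 and 1132 with ASO10 and 1147, 1201 and 1266 with NCA (0.57, adjusted p = 5.69e-09; -0.12, adjusted p = 0.0986). In IMR32 the rise was 0.42 with ASO1, whose 4 libraries lay between 1319 and 1331 against 968 to 1017 with NCA, and 0.22 with ASO2. PSMC3 fell with ASO2 in NGP (-0.23, adjusted p = 0.00135) and rose with ASO10 in SK-N-BE(2)c (0.27, adjusted p = 0.00015) and with ASO1 in IMR32 (0.32, adjusted p = 0.00185). PSMC1 was lowest with ASO10 in NGP, at 67.3, 70.4 and 81.9 against 125, 122 and 133 (-0.79, SE 0.15, adjusted p = 0.0001). PSMC1 has 13 annotated pseudogenes, and its value is uncertain because reads may be split between copies.

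Of the non-ATPase genes of the base, PSMD2 and PSMD1 are the large scaffold subunits and PSMD4 is a ubiquitin receptor. All 3 rose with ASO1 in IMR32, where 13.6% of all genes rose. PSMD2 had 3951, 3346, 3528 and 3572 with ASO1 against 2790.2, 2603, 2489 and 2502 with NCA (0.47, adjusted p = 2.65e-06), and it rose by 0.31 with ASO2 in the same line. PSMD2 in SK-N-BE(2)c had 8166, 7972 and 8481 with ASO2, 6098, 6309 and 6168 with ASO10 and 5511, 5441 and 5547 with NCA, with no overlap (0.58, adjusted p = 1.47e-11; 0.17, adjusted p = 0.00269). In NGP it rose with ASO2 (0.27, adjusted p = 5.67e-05) and not with ASO10 (0.05, adjusted p = 0.44). PSMD1 went the other way. With ASO10 it had 2043, 1956 and 2181 against 3121, 3054 and 3256 with NCA in NGP, a fall of 0.61 (SE 0.05, adjusted p = 5.79e-10). Its counts in SK-N-BE(2)c were 2928, 2535 and 2802 with ASO10, 3289, 3648 and 3688 with ASO2 and 3947, 3916 and 4403 with NCA (-0.57, adjusted p = 5.94e-09; -0.21, adjusted p = 0.00402). The 2 scaffold genes of the base thus had opposite signs in SK-N-BE(2)c with both ASOs. In IMR32 PSMD1 rose by 0.19 and 0.18. These calls were lost without NCA replicate 2 (0.17, adjusted p = 0.0518, and 0.15, adjusted p = 0.0676), and that with ASO2 also without ASO2 replicate 1 or NCA replicate 3 (adjusted p 0.0564 and 0.0541).

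The 8 lid genes rose more often than not in IMR32, 6 with ASO1 and 7 with ASO2, and none fell. Of all genes there, 13.6% rose with ASO1 and 17.6% with ASO2. The lid split in the other lines. With ASO2, 4 lid genes rose and 2 fell in NGP, and 5 rose and 2 fell in SK-N-BE(2)c. Of all genes, 30.6% rose and 28.1% fell in NGP, and 33.6% and 33.4% in SK-N-BE(2)c. Lid genes thus fell no more often than all genes. PSMD3 was the member that rose most with ASO2 in both lines. Its counts in NGP were 6203, 6121 and 6016 with ASO2, 3919.9 to 4092 with ASO10 and 4436, 4475 and 4335 with NCA, and the 3 groups did not overlap. For SK-N-BE(2)c they were 6977, 7045 and 6609 with ASO2, 4518, 4699 and 4433 with ASO10 and 4671, 4281 and 4437 with NCA, where the last 2 groups overlapped. PSMD3 rose with ASO2 by 0.47 (adjusted p = 3.55e-09) in NGP and 0.62 (adjusted p = 1.31e-11) in SK-N-BE(2)c. With ASO10 it fell by 0.15 (adjusted p = 0.00672) in NGP and had a difference of 0.03 (adjusted p = 0.651) in SK-N-BE(2)c. In IMR32 it rose by 0.35 and 0.30.

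PSMD8 and PSMD7 were the lid genes that fell with ASO2. PSMD8 had 3172, 3194 and 3210.4 with ASO2, 4403, 4512 and 4352 with ASO10 and 4219, 4376 and 3934 with NCA in NGP (-0.39, adjusted p = 3.17e-07; 0.08, adjusted p = 0.157). The counts in SK-N-BE(2)c were 3264, 3368 and 3125 with ASO2, 4665, 4892 and 4764 with ASO10 and 4178, 4289 and 4033 with NCA, without overlap (-0.36, adjusted p = 4.66e-07; 0.20, adjusted p = 0.00153). In IMR32 PSMD8 rose with both ASOs (0.33 and 0.20). PSMD7 fell with ASO2 by 0.38 (NGP) and 0.34 (SK-N-BE(2)c), with adjusted p of 3.58e-06 and 7.32e-06. PSMD7 is the partner of PSMD14 in the deubiquitinating pair of the lid. PSMD14, the catalytic deubiquitinase, fell instead with ASO10: 1368, 1347 and 1485 against 1810.1, 1658 and 1883 with NCA in NGP (-0.35, adjusted p = 2.88e-05), and 924, 767 and 871 against 1105, 1097 and 1316 in SK-N-BE(2)c (-0.46, adjusted p = 9.4e-06). The groups of PSMD14 did not overlap in these 2 comparisons, and with ASO2 its differences were 0.05 and 0.10, neither called.

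Of the remaining lid genes, PSMD6 rose with ASO2 by 0.27 (IMR32), 0.42 (NGP) and 0.61 (SK-N-BE(2)c), and with ASO10 by 0.21 in NGP but not in SK-N-BE(2)c (-0.03). The NGP value with ASO10 lost its call without ASO10 replicate 3 (0.17, adjusted p = 0.0528), and the rise of 0.23 with ASO1 in IMR32 lost its call without NCA replicate 3 (0.19, adjusted p = 0.0512). PSMD13 rose in every comparison but ASO1 in IMR32 (0.11), by 0.32 with ASO2 in IMR32, 0.35 and 0.21 in NGP and 0.38 and 0.19 in SK-N-BE(2)c. PSMD11 rose by 0.48 and 0.30 in IMR32, where it had 2386, 2316, 2207 and 2348 with ASO1 and 2176, 2124, 1832 and 2013 with ASO2 against 1606 to 1807 with NCA. With ASO2 it also rose by 0.26 (NGP) and 0.25 (SK-N-BE(2)c), of which the latter was not called when libraries were scaled to the same total (0.11, adjusted p = 0.0793). PSMD12 rose in IMR32 (0.31 and 0.28) and, given ASO2, in SK-N-BE(2)c (0.41), and with ASO10 it fell by 0.23 (NGP) and 0.21 (SK-N-BE(2)c).

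The chaperones moved in both directions. In IMR32, 1 of 7 rose and 1 fell with ASO1, and 4 rose and 1 fell with ASO2. Of all genes tested there, 13.6% rose and 14.4% fell with ASO1, and 17.6% and 14.8% with ASO2. Both counts with ASO1 and the fall with ASO2 were thus near the share of all genes. PSMG4, part of a chaperone pair for the alpha ring, was lower in each line with ASO2. It had 409, 481, 516 and 512 against 566 to 580.5 with NCA in IMR32 (-0.27, adjusted p = 0.00783), and 254, 278 and 296 against 389, 349 and 331 in SK-N-BE(2)c (-0.37, adjusted p = 0.00226), with no overlap in either. In NGP it had 427, 441 and 469 against 529, 535 and 471 (-0.20, adjusted p = 0.0375), and that call was lost when ASO2 replicate 1 or 2 or NCA replicate 1 or 2 was left out (adjusted p 0.0807 to 0.133). The fall of 0.20 with ASO1 in IMR32 was at the threshold (adjusted p = 0.0493). It was lost by edgeR (0.059), by DESeq2 (0.0731) and without ASO1 replicate 1, 3 or 4 or any 1 of the NCA libraries (adjusted p 0.0639 to 0.153). PSMG3, the partner of PSMG4, rose with ASO10 in NGP (0.21, adjusted p = 0.0326) and with both ASOs in SK-N-BE(2)c (0.23 and 0.17). The first was lost without ASO10 replicate 1 or NCA replicate 1 or 3 (adjusted p 0.0599 to 0.134), the last without ASO10 replicate 2 or 3 or NCA replicate 2 or 3 (0.0858 to 0.139), and that of 0.23 when libraries were scaled to the same total (0.09, adjusted p = 0.267).

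POMP, the chaperone that matures the beta rings, fell with ASO10 in SK-N-BE(2)c. Its counts there were 1707, 1390.1 and 1561 with ASO10, 2014, 1879 and 2048 with ASO2 and 1867, 1949.9 and 2157 with NCA, so that ASO10 overlapped neither group (-0.36, SE 0.07, adjusted p = 5.13e-05). In NGP POMP had 1585, 1543 and 1691 with ASO10 and 1515, 1467 and 1677 with NCA, which overlapped (0.05, adjusted p = 0.557). In IMR32 it rose with ASO2, with 848, 778, 702 and 711 against 730.3, 622, 612 and 630.2 with NCA (0.23, adjusted p = 0.0256). The IMR32 groups overlapped, and the call was lost without ASO2 replicate 1 or 2 or NCA replicate 2, 3 or 4 (adjusted p 0.0663 to 0.0865). The chaperones of the base are PSMD5, PSMD9 and PSMD10. PSMD10 rose with ASO2 in all 3 lines, by 0.37, 0.35 and 0.43. PSMD9 rose in NGP with ASO2 (0.33, adjusted p = 5.35e-05) and ASO10 (0.38, adjusted p = 7.46e-06) and was not called in the other lines.

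The base chaperones also separated the lines by level. PSMD5 had between 0 and 1.83 normalised counts in IMR32, where 7 of 12 libraries were at 0, and between 748 and 1243 in SK-N-BE(2)c, where its mean was 1037. In NGP it had 0.911, 3.54 and 1.03 with NCA, 0, 5.92 and 2.22 with ASO2 and 16.3, 7.61 and 15.8 with ASO10, which was 16 reads at most and too few on average to be tested. The ASO10 libraries of NGP were nonetheless the 3 highest. PSMD5 fell in SK-N-BE(2)c when ASO2 was given, from 1112, 1209 and 1243 with NCA to 748, 810.4 and 873 (-0.55, SE 0.07, adjusted p = 1.32e-07), and had 1216, 1046 and 1076 with ASO10 (-0.10, adjusted p = 0.263). PSMD9 was instead highest in NGP, with means of 2234 in NGP, 189 in SK-N-BE(2)c and 68.5 in IMR32. IMR32 was scaled apart from the other lines, so its levels are only roughly comparable, but the ranges of each gene did not overlap between NGP and SK-N-BE(2)c, which share a scale. No test was made between lines, whose library kits are not known.

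**Figure D4:**
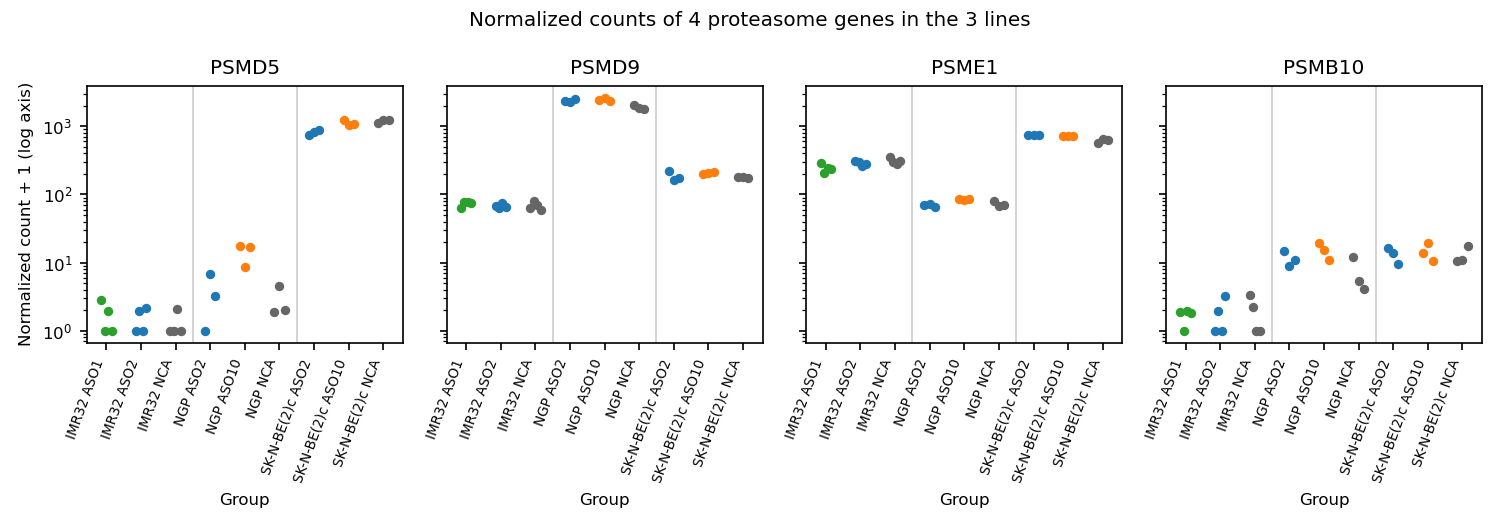
Levels of PSMD5, PSMD9, PSME1 and PSMB10 in the 3 lines. The vertical axis is the normalised count + 1 on a log axis, each point is 1 library and colours give the ASO; IMR32 was scaled apart. PSMD5 is high in SK-N-BE(2)c only (748 to 1243), PSMD9 is highest in NGP, PSME1 is lowest in NGP and PSMB10 stays below 20 in all libraries.

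PSME1 and PSME2 encode the 2 subunits of the interferon-inducible activator that caps the core, and PSME4 encodes a large single-chain activator. PSME1 had 573, 653 and 634 with NCA in SK-N-BE(2)c, 744, 752 and 735 with ASO2 and 719.8, 726 and 711 with ASO10, with NCA below both. It rose by 0.26 (adjusted p = 0.00179) and 0.22 (adjusted p = 0.0107). The call with ASO10 was lost without NCA replicate 1 (0.16, adjusted p = 0.0735) and that with ASO2 when libraries were scaled to the same total (0.13, adjusted p = 0.116). In IMR32 PSME1 fell with ASO1 (-0.34, adjusted p = 0.00767), with 287, 208, 244 and 237 against 349, 299.8, 280.1 and 305 in NCA, which overlapped. PSME2 had 1413, 1383 and 1504 with ASO2, 1109, 1178 and 1200.1 with ASO10 and 983, 967 and 1025 with NCA in SK-N-BE(2)c, without overlap (0.53, adjusted p = 1.81e-08; 0.23, adjusted p = 0.00253). In NGP neither gene was called, and PSME1 was low there, with a mean of 74.4 against 694 in SK-N-BE(2)c. PSME2 averaged 304 and 1196 in these lines. PSME4 fell with ASO2 in SK-N-BE(2)c (-0.32, adjusted p = 0.00012). Its rise of 0.13 with ASO2 in IMR32 was lost without ASO2 replicate 1 or 4 or NCA replicate 2 or 3 (adjusted p 0.0824 to 0.105). PSMF1, which inhibits the core, rose only with ASO10 in SK-N-BE(2)c (0.16, adjusted p = 0.0304) among the 6 comparisons, and not without ASO10 replicate 1 or 2 or NCA replicate 3 (adjusted p 0.0517 to 0.107).

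The immunoproteasome genes were nearly silent. PSMB8 was at 0 in 11 of 12 IMR32, 8 of 9 NGP and 4 of 9 SK-N-BE(2)c libraries and had at most 5 reads in any library. PSMB9 was at 0 in 11, 8 and 9 libraries of these lines and had at most 1 read, and PSMB11, the thymus-type subunit, was at 0 in 11, 7 and 8 and had at most 3 reads. PSMA8, the alpha subunit of spermatogenic cells, was at 0 throughout. PSMB10 had 0 to 2.36 normalised counts in IMR32 and could be tested in the other lines. In NGP it had 13.9, 7.90 and 10.0 with ASO2, 18.3, 14.3 and 9.86 with ASO10 and 10.9, 4.43 and 3.08 with NCA. The ASO10 and NCA groups overlapped, since NCA replicate 1 exceeded the lowest ASO10 library. PSMB10 rose with ASO10 by 1.20 (SE 0.45, adjusted p = 0.0255), a call from 3 to 18 reads per library. It was lost without NCA replicate 2 (1.08, adjusted p = 0.0627) or NCA replicate 3 (0.87, adjusted p = 0.107) and by DESeq2 (adjusted p = 0.0681). The mean of PSMB10 over the NGP libraries, 10.3, met the minimum of 10 only through libraries given an ASO against NESPR. Without ASO10 replicate 1 or 2 PSMB10 was under that minimum and was not tested. PSMB10 lay in SK-N-BE(2)c between 8.40 and 18.4 with no call. Per kilobase of exon, PSMB10 stood at 0.230% of PSMB7, the constitutive subunit it replaces, with NCA in NGP, at 0.410% with ASO2 and at 0.644% with ASO10. The same share was 0.0615% to 0.0926% in IMR32 groups and 0.422% to 0.536% in SK-N-BE(2)c groups.

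Of 5 immune cell markers, 3 (LYZ, ITGAM and CD14, all of myeloid cells) rose with ASO10 in NGP beside PSMB10, by 2.08, 4.21 and 0.95. Of all genes tested, 26.8% rose in that comparison. With ASO2 in NGP, where PSMB10 was not called (0.82, adjusted p = 0.116), ITGAM and CD14 rose by 1.25 each and LYZ fell by 0.81. The summed normalised counts of these 3 with PTPRC and CD3E were 173 to 211 with ASO10, 43.4 to 49.2 with ASO2 and 31.8 to 44.3 with NCA. LYZ had 111, 93.2 and 80.9 with ASO10 against 20.9, 23.0 and 20.5 with NCA. ITGAM ranged from 1 to 75 reads over the NGP libraries, with a mean of 28.4 normalised counts. It met the minimum mean for a test only through the ASO10 libraries. PTPRC, which all white blood cells carry, and CD3E, which marks T cells, were at 0 in all 9 NGP libraries. Sums of the same 5 markers in SK-N-BE(2)c were 39.8 to 58.9 with ASO2, 49.3 to 56.8 with ASO10 and 28.3 to 31.3 with NCA. Both ASOs thus lay above NCA in SK-N-BE(2)c too, where PSMB10 was not called. The part of other cells in the PSMB10 value was not tested.

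The partners of the immunoproteasome in antigen presentation were mixed. Of those tested, 2 of 8 rose and 2 fell with ASO1 and 5 rose and 1 fell with ASO2 in IMR32. Of all genes there, 13.6% rose and 14.4% fell with ASO1, and 17.6% and 14.8% with ASO2. In NGP 4 of 11 rose and 1 fell with ASO2, and 3 rose and 2 fell with ASO10. All genes there had 30.6% higher and 28.1% lower with ASO2, and 26.8% and 27.6% with ASO10. In SK-N-BE(2)c 7 of 12 rose and 2 fell with ASO2, and 3 rose and 2 fell with ASO10. The shares of all genes there were 33.6% higher and 33.4% lower with ASO2, and 27.8% and 31.1% with ASO10. TAP1, 1 chain of the peptide transporter, had no read outside 1 IMR32 library. IRF1, an interferon-responsive transcription factor, rose in all 6 comparisons, by 1.07 and 0.78 in IMR32, 2.06 and 1.47 in NGP and 1.07 and 0.81 in SK-N-BE(2)c. Its NCA libraries in NGP held 3 to 5 reads, and its mean there (12.8) met the minimum of 10 only through libraries given an ASO against NESPR. ERAP1, which trims peptides for MHC class I, fell in all 6, by 0.74 and 0.61, 0.87 and 0.71, and 0.70 and 0.52 in the same order. NLRC5, the activator of MHC class I genes, had 1.82, 0.886 and 1.03 with NCA in NGP (1 to 2 reads), 10.2, 7.90 and 8.90 with ASO2 and 87.6, 61.8 and 57.2 with ASO10. It met the minimum mean in NGP only through the ASO10 libraries. The counts of partners that rose in NGP include both IRF1 and NLRC5. TAPBP, also among those tested in NGP, had a mean of 10.5 there, close to the minimum of 10. NLRC5 rose in SK-N-BE(2)c with ASO10 to 81.8, 110.5 and 86.0 from 48.1, 31.3 and 23.1 with NCA (1.46, adjusted p = 2.34e-05). With ASO2 it had 27.6, 15.4 and 19.2 there (-0.67, adjusted p = 0.0256), a call lost without ASO2 replicate 2 (-0.49, adjusted p = 0.13) or 3 (adjusted p = 0.0552) or NCA replicate 1 (-0.40, adjusted p = 0.213). These genes moved without PSMB8 or PSMB9 reaching more than 5 reads in a library.

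Among 31 regulators and accessory proteins of the proteasome, 15 rose and 3 fell with ASO1 and 18 rose and 2 fell with ASO2 in IMR32. Of all genes in this line, 13.6% rose and 14.4% fell with ASO1, and 17.6% and 14.8% with ASO2. In NGP, where 30 could be tested, 15 rose and 7 fell with ASO2 and 8 rose and 5 fell with ASO10. All genes in NGP had 30.6% higher and 28.1% lower with ASO2, and 26.8% and 27.6% with ASO10. In SK-N-BE(2)c 15 rose and 5 fell with ASO2, and 12 rose and 14 fell with ASO10. The shares of all genes in that line were 33.6% higher and 33.4% lower with ASO2, and 27.8% and 31.1% with ASO10. ADRM1, the ubiquitin receptor of the base, rose with every ASO in every line. It had 957, 1053, 1038 and 1079 with ASO1 in IMR32 against 698, 604, 647 and 589.8 with NCA (0.70, adjusted p = 2.47e-08), and rose by 0.58 with ASO2. ADRM1 in SK-N-BE(2)c had 5875, 5407 and 5188 with ASO2 and 4496, 4579 and 4374 with ASO10 against 3875, 3559 and 3422 (0.60 and 0.31). The NGP values of 0.18 and 0.15 lost their calls without NCA replicate 3 (0.11, adjusted p = 0.0743; 0.08, adjusted p = 0.195), the first also without ASO2 replicate 3 (0.14, adjusted p = 0.0857) and the second without ASO10 replicate 1 or 2 (adjusted p 0.096 and 0.149). ZFAND2A, an arsenite-inducible proteasome partner, was the regulator that rose most with ASO1 in IMR32 (1.44), with ASO2 in SK-N-BE(2)c (1.50) and with ASO10 there (1.07). BAG3, a co-chaperone of HSP70, was the regulator that rose most with ASO2 in IMR32 and NGP (0.74 in each). SEM1, a small subunit of the lid outside the PSM names, fell with ASO10 in SK-N-BE(2)c (-0.33, adjusted p = 0.000188). USP14, the deubiquitinase bound to the base, fell most with ASO10, by 1.01 (NGP) and 1.23 (SK-N-BE(2)c).

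NFE2L1, whose targets are the subunit genes, was itself not called in IMR32 (0.09 and 0.06). It rose with ASO10 in SK-N-BE(2)c, to 7322, 8002 and 7806 from 5922, 5822 and 5407 (0.43, adjusted p = 2.86e-08). In NGP with ASO2 it fell by 0.16 (adjusted p = 0.0144), a call lost without ASO2 replicate 1 or NCA replicate 1 or 2 (adjusted p 0.0602 to 0.0686). NFE2L1 is processed to its active form by NGLY1, which removes its glycans, and DDI2, the protease that cleaves it. NGLY1 fell with ASO2 in NGP, to 112, 109.6 and 89.0 from 199, 216 and 215 (-1.02, adjusted p = 3.95e-07), and in SK-N-BE(2)c, to 128, 137 and 156 from 250.1, 292 and 314 (-1.02, adjusted p = 1.68e-08). It also fell with ASO10 in SK-N-BE(2)c (-0.53) and was not called in IMR32 (0.11 and -0.16). DDI2 rose with ASO1 in IMR32 by 0.25. NFE2L2, a related factor of the oxidative stress response, rose in NGP with ASO2 (0.39, adjusted p = 0.000762) and ASO10 (0.48, adjusted p = 8.76e-05). The activity of these proteins was not measured.

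ASO2 and ASO10 were also compared directly in NGP and SK-N-BE(2)c. In NGP 21 proteasome genes were higher with ASO2 and 7 with ASO10, where 58.6% of all genes were called (30.6% higher, 28% lower). Scaled to the same total, these were 16 and 11. In SK-N-BE(2)c 23 were higher with ASO2 and 8 with ASO10, against a background of 65.4% (34.6% higher, 30.8% lower). Groups did not overlap for 21 and 8 genes in NGP (65% of all genes) and for 26 and 8 in SK-N-BE(2)c (68.2%). The core accounted for 9 higher and 2 lower in each line, and the cap for 10 and 4 in NGP and 11 and 3 in SK-N-BE(2)c. The largest values on the higher side were those of PSMD3 (0.62), PSMC6 (0.57) and PSMC1 (0.57) in NGP, and PSMA2 (0.81), PSMC6 (0.69) and PSMD6 (0.65) in SK-N-BE(2)c. PSMA5 (-0.90 and -0.86) and PSMD8 (-0.47 and -0.55) were lower with ASO2 in both lines, with PSMB1 (-0.40) next in NGP and PSMD5 (-0.46) in SK-N-BE(2)c. ASO1 and ASO2 in IMR32 differed less: 7 genes were higher with ASO1 and 1 with ASO2 (21.9% of all genes called, 9.17% higher, 12.8% lower). Groups did not overlap for 4 and 1 (21% of all genes). PSMA4 (0.29), PSMB4 (0.28) and PSMA5 (0.25) were higher with ASO1, and PSMD13 was lower (-0.21, adjusted p = 0.0208). The PSMD13 call was lost without ASO1 replicate 2 or 4 or ASO2 replicate 1 or 4 (adjusted p 0.0545 to 0.0717). The count in IMR32 depended on the scaling, with 16 higher and 0 lower at the same total, and on single libraries (4 to 12 called when each was left out).

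NGP and SK-N-BE(2)c share no library, so the effect of an ASO could be set against itself between lines. Over the 42 genes tested in both, the differences with ASO2 had Pearson's r of 0.747 and Spearman's rho of 0.694, and those with ASO10 had 0.617 and 0.740, across genes, which are not independent replicates. With ASO2, 11 genes rose in both lines, which was 84.6% of those that rose in NGP and 50% of those that rose in SK-N-BE(2)c, and 6 fell in both (85.7% and 66.7%). Over the 12637 genes tested in both lines the shares were 77.9% and 72.3% for rises and 83.5% and 71.6% for falls. With ASO10, 3 rose in both (50% and 25%) and 7 fell in both (70% and 63.6%), where all genes had 70.0% and 66.6% for rises and 71.8% and 64.8% for falls. No proteasome gene (0 of 42) was called in opposite directions with either ASO, against 1.06% (ASO2) and 1.68% (ASO10) of all genes. At such shares, 0 of 42 does not set the proteasome genes apart. Pearson's r over all genes was 0.811 and 0.828, above the proteasome genes with each ASO.

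**Figure D5:**
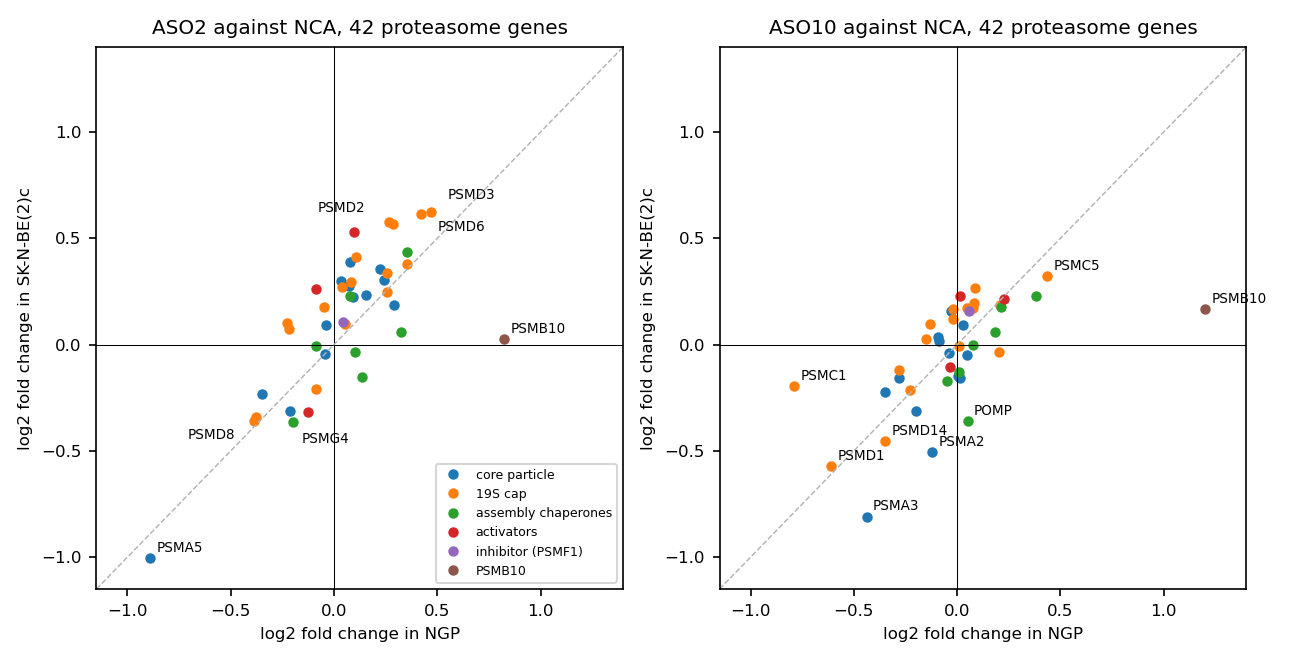
Differences against NCA in SK-N-BE(2)c and NGP for the 42 proteasome genes tested in both, for ASO2 and ASO10. Axes are log2 fold changes, each point is a gene coloured by role, and the line marks equal values. PSMA5 lies far to the lower left with ASO2 (-0.89 and -1.01), and many cap genes lie above the line with ASO2, on the side of SK-N-BE(2)c.

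The ASO2 effect, taken with its sign, nonetheless differed between the lines for 11 of the 42 genes by the interaction test. That was 26.2%, against 19.9% of 12637 genes tested in both lines. The signed effect was higher in SK-N-BE(2)c for 10 of them, against 10.5% of all genes, and lower for PSMG1, against 9.37%. A higher signed effect is not always a larger one. Of the 11, 7 were cap genes and 2 core genes. PSMC3 (0.33, adjusted p = 0.00311), PSMD2 (0.31, adjusted p = 0.000928), PSMB6 (0.31, adjusted p = 0.0138), PSMD12 (0.31, adjusted p = 0.0116) and PSME2 (0.43, adjusted p = 0.00852) had the largest positive differences, of which that of PSMB6 was not called without NGP ASO2 replicate 2 (0.26, adjusted p = 0.0576). Scaled to the same total, 4 were higher and 3 lower in SK-N-BE(2)c. With ASO10, 4 of the 42 genes differed, 2 in each direction (9.52%, against 19.2% of all genes, 9.35% higher and 9.86% lower). PSMA3 (-0.37, adjusted p = 0.0049) and POMP (-0.41, adjusted p = 0.00578) had the more negative value in SK-N-BE(2)c. These counts moved with single libraries, between 4 and 11 for ASO2 and between 2 and 11 for ASO10, the latter being 11 without NGP NCA replicate 3.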

How the data were processed

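RNA sequencing libraries of 3 cell lines were grouped by their titles, 30 libraries in 9 groups. Per the labels' protocols, there were 2 kinds of stranded library: paired-end from total RNA, and single-end from mRNA. The submitters' processing notes name FastQC 0.11.8, cutadapt 1.18, STAR 2.6.0, HTSeq 0.6.1, DESeq2 1.42.0 and the build hg19. The authors deposited normalised counts per gene, 1 table per line, a signal equal to read counts divided by 1 size factor per library. That factor was read from the spacing of the lowest values, and 100% of values then came out whole within 0.01. NGP and SK-N-BE(2)c shared 1 scale (median ratio to the pooled geometric mean 1.012 in all 18 libraries) and IMR32 had its own. The IMR32 table held 174 entries without an Ensembl ID (0.172% of values), which were left out, and 0 columns of samples were unused. Symbols were matched for 99.9% of IDs in IMR32 and 89.8% in the others. GENCODE release 29 gave biotype, exon length and pseudogenes only.

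Tests used limma 3.58.1 (R 4.3.3) on log2(value + 1), fitting 1 mean per group and line with a mean-variance trend, for genes with a mean of at least 10. Fold changes are on this scale, which understates those of low genes. The limma interaction between NGP and SK-N-BE(2)c used their 18 libraries. The fit was tested on simulated counts first. Alternatives were scaling to the same total, pseudocount 5, no filter, a mean of at least 50, edgeR 4.0.16 and DESeq2 1.42.0 on recovered reads, only the 2 groups compared, a replicate block and leaving out libraries. Members and gene lists were chosen with earlier results of these data known. Some cell type markers are not reported here, and counts and sums of markers leave them out. Genes named with values were the 4 with the largest called change on each side against NCA in each comparison, the 3 largest between ASOs, members called with 1 sign in all 6 comparisons, all immunoproteasome, activator and inhibitor genes and POMP, and 6 regulators. Others were chosen after their values were seen, to describe each role. Intervals were not given, since depth enters only through the reads per library.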

Additional observations from a re-analysis of the deposited data

Results flagged for a closer look

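In IMR32, 1 library lay apart from the other 3 of its group in 11 of 123 sets of 4 values examined, where chance gives about 1 in 20. The library numbered 1 was the highest for PSMA1 with ASO2 (183), PSMA4 with ASO1 (3521), PSMB7 with ASO2 (1126) and PSMD10 with ASO1 (188). NCA replicate 1 was the highest for PSMA5 (1197), PSMC5 (2517), PSMD11 (1807), PSMD12 (2327) and POMP (730.3). PSMD9 was lowest in ASO1 replicate 1 (62.1), and PSMA1 was highest in ASO1 replicate 2 (186). Values are normalised counts.

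The effect of an ASO against NCA differed between SK-N-BE(2)c and NGP in the limma interaction test for 15 gene and ASO pairs. For ASO2 the difference on the log2 scale, SK-N-BE(2)c minus NGP, was 0.21 for PSMB4, 0.31 for PSMB6, 0.23 for PSMC2, 0.33 for PSMC3, 0.21 for PSMC4, 0.28 for PSMC6, 0.31 for PSMD2, 0.23 for PSMD4, 0.31 for PSMD12, -0.29 for PSMG1 and 0.43 for PSME2. For ASO10 it was -0.37 for PSMA3, 0.18 for PSMD3, 0.22 for PSMD7 and -0.41 for POMP. Leaving out 1 library at a time lost the call of PSMB4 (adjusted p 0.0558 to 0.0749 where lost), PSMB6 (0.0576), PSMC2 (0.0568 to 0.119), PSMC4 (0.0533 to 0.0718), PSMC6 (0.0544 to 0.0865), PSMD4 (0.0545 to 0.0999), PSMG1 (0.0519 to 0.108), PSMD3 (0.0547 to 0.126) and PSMD7 (0.0553 to 0.0854).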

How the results depend on the processing

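Of 196 calls of named proteasome genes, 173 were kept when libraries were scaled to the same total, 181 with no filter on low values, 190 by edgeR, 186 by DESeq2, 194 with only the 2 groups compared, and all 196 with pseudocount 5. No direction reversed under the alternatives run. Proteasome genes called between ASO1 and ASO2 in IMR32 numbered 8, but 16 at the same total, 19 with a replicate block, 17 without the 3 libraries numbered 1 (chosen after seeing the data) and 4 to 12 leaving out 1 library. Genes whose ASO2 effect differed between lines numbered 11, but 7 at the same total, 6 with no filter and 4 to 11 leaving out 1 library. For ASO10 they numbered 4, but 2 with no filter and 2 to 11 leaving out 1 library, and at the same total 1 was higher and 3 were lower. The cause was not tested. Leaving out 1 library gave 22 to 28 and 15 to 22 genes called in IMR32 with ASO1 and ASO2, 18 to 23 and 14 to 17 in NGP with ASO2 and ASO10, 30 to 32 and 18 to 22 in SK-N-BE(2)c, and 25 to 27 and 29 to 32 between ASO2 and ASO10. With the replicate block, calls against NCA numbered 34 and 28 in IMR32, 20 and 16 in NGP and 32 and 24 in SK-N-BE(2)c, and 29 and 31 between ASO2 and ASO10 there. The labels state no pairing by number. In IMR32 the deviations of same-numbered libraries correlated at 0.26 to 0.33 for number 1, 0.11 to 0.16 for number 3 and -0.01 to 0.06 for 2 and 4, and 14 of 24 comparisons of a library with another group were best with its own number (6 of 18 in each other line). Depth limited PSMB8, PSMB9, PSMB11, PSMA8 and, in IMR32, PSMD5, which had too few reads to show a difference, and PSMD5 in NGP was under the minimum mean for a test.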
